A study of Mus musculus with 4 samples.

Results

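The interferon-gamma induced GTPases are large GTP-binding proteins that cells make in quantity when they sense interferon-gamma. The 8 genes followed here were taken by symbol from the 16706 genes of the deposited matrix: Gbp2, Gbp3, Gbp4 and Gbp7 of the guanylate-binding protein (GBP) family, and Irgm1, Igtp (also called Irgm3), Ifi47 (Irgd) and Iigp1 (Irga6) of the immunity-related GTPase (IRG) family. All 8 were found, and their UMIs (unique molecular identifiers, 1 per captured transcript) were summed over the cells of a class in a library. The mice were male C57Bl/6 animals of 9 weeks with the genotype Pax2.rtTA;TetO.Cre;R26.Confetti, in which the Pax2 promoter drives the inducible activator that switches on Cre and the multicolour reporter. Every group carried these alleles, and all animals were injected with anti-GBM serum, whose antibodies bind the basement membrane of the glomerulus and cause crescentic glomerulonephritis. From day 1 after the serum the groups received distilled water as vehicle or a drug, with doses of 15 mg/kg for panobinostat, 10 mg/kg for givinostat and 60 mg/kg for ruxolitinib, and kidneys were taken on day 7. Total kidney cells were sequenced as 1 droplet 3′ library per group. The labels give 2 animals per group and do not say whether a library pools both. There was no group without the serum among the samples analysed here.

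Interferon-gamma, made mainly by T and NK cells, binds a receptor that signals through the kinases JAK1 and JAK2 to GAS and ISRE elements before its target genes. Type I interferons act mainly through ISRE elements. GBPs and effector IRGs coat the vacuoles of intracellular pathogens and break them open, while the regulatory IRGs (Irgm1 and Igtp here) sit on the membranes of the cell itself and hold the effectors inactive there. Ruxolitinib inhibits JAK1 and JAK2. Panobinostat and givinostat inhibit histone deacetylases, and since their doses differ, their values are set side by side and not compared. The design asks how each compound acts in this model, and the GTPases are followed as interferon-inducible transcripts in each kind of cell. Whether their levels track interferon signalling under these drugs was not tested.

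RefSeq promoter entries for GRCm38.p6 (the build mm10) were used for 6 of the 8 members, and the 120 bases before the annotated start were searched for 2 motifs on both strands. The GAS motif was TTCNNNGAA, which reads the same on either strand, and the ISRE core was GAAA, any 2 bases and GAAA again, or on the other strand TTTC, any 2 bases and TTTC. Of the 5 members with a match, 4 are shown because the same elements stand before genes of both families. The matched letters are in capitals, and each is written 5′ to 3′ in the direction of the gene.
Gbp3 (chr3:142559924-142560043, plus strand): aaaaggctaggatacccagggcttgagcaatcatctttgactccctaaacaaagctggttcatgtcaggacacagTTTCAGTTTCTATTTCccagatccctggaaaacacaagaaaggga
Gbp7 (chr3:142530216-142530335, plus strand): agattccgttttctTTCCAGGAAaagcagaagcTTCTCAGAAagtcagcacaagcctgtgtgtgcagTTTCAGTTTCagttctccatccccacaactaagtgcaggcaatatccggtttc
Irgm1 (chr11:48871421-48871540, minus strand): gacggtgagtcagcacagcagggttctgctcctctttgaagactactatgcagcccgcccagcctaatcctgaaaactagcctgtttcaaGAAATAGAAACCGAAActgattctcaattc
Igtp (chr11:58199436-58199555, plus strand): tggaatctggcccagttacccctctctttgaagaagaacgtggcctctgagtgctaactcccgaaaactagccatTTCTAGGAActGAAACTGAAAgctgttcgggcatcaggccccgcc

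An ISRE core was found in each of these 4 windows, as a pair of overlapping matches in Gbp3 and in Irgm1, and a GAS motif in Gbp7 (2 matches) and Igtp (1 match). The Irgm1 window lies within an exon of a longer transcript of the gene in GENCODE vM21. In the Gbp2 window (chr3:142620543-142620662, plus strand), part of which is an annotated UTR, an ISRE core began 59 bases before the start. Over all 32851 promoter entries, 1.22% held the ISRE core in the same 120 bases, 3.15% held the GAS motif and 0.0609% held both. The window of Ifi47 (chr11:49076467-49076586, plus strand) held neither, which says only that these letters are not in it. Gbp3 has a second annotated start, whose window held neither. The map of motif matches shows the matches by their distance from the start.

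**Figure D1:**
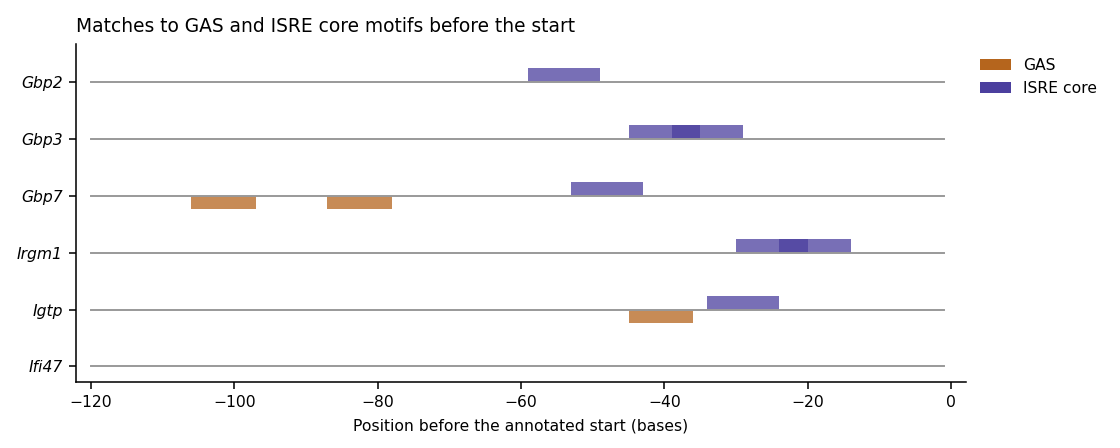
Positions of GAS (brown, below the line) and ISRE core (violet, above the line) matches in the 120 bases before the annotated start of 6 members, with overlapping matches darker. Matches lie between 106 and 15 bases before the start, and Ifi47 has none.

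In GENCODE vM21, Gbp2 (chr3:142620602-142638008), Gbp3 (chr3:142560026-142573209) and Gbp7 (chr3:142530342-142550149) lie side by side on chromosome 3. Gbp4 lies on chromosome 5 (chr5:105115767-105139586), Irgm1 (chr11:48861968-48871683), Ifi47 (chr11:49076587-49096974) and Igtp (chr11:58199556-58207591) on chromosome 11, and Iigp1 on chromosome 18. The annotated span of Igtp overlaps that of Irgm2 on the same strand, that of Gbp4 overlaps Gbp8 and Gbp9, and that of Ifi47 lies within Olfr56. All 4 of these neighbours are in the matrix. How reads in shared exons were assigned is not given in the sources used here, so the counts of Igtp, Gbp4 and Ifi47 are uncertain to that extent. GBPs are also close copies of each other.

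The matrix held 16003 cells. The 4 libraries kept 3472 to 4396 cells at a median of 6568.5 to 10020.5 UMIs per cell, and the givinostat library was the deepest. Clusters were named for the markers that led them, and every named class is called X-like because no protein was measured. No cluster was led by podocyte or parietal cell markers. The doublet caller Scrublet marked 0.0254% to 2.30% of cells, under 0.5% in 3 libraries, so it did not work and no cell was removed on its calls. Of the cell barcodes, 20 occurred in more than 1 library. A split of the libraries runs across the groups: Tpm3-rs7, a copy of a tropomyosin gene, was at 4.14, 3.96, 53.8 and 53.8 CPM (counts per 1e6 UMIs of the cells summed) over all cells of vehicle, panobinostat, givinostat and ruxolitinib. The same split was present in macrophage-like cells, at 5.44, 8.75, 78.1 and 113 CPM. Values are given below in this order of libraries. The comparisons of givinostat and ruxolitinib with vehicle cross that split, and its part in them was not tested. A group is a single library here, so nothing was tested between groups, and the 95% intervals in brackets cover counting error only: a difference is between libraries, and is not shown to be between treatments.

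Endothelial-like and T-like cells held the most transcripts of the 8 genes, myeloid and NK-like cells held intermediate amounts, and tubule and erythroid-like cells held the least. The 8 genes summed to between 398 and 959 CPM in endothelial-like cells (median 525 over 4 libraries) and between 354 and 519 in T-like cells (median 382), and these ranges overlap. The T-like class leaves out a cluster of 507 cells led by Lef1 and Ccr7, which had 9 of 9 T cell markers up but stayed unnamed. Its sums, given under the other observations, lie below the T-like range and within the macrophage-like range. Macrophage-like cells followed with 152 to 326 CPM, and no library of theirs reached the T-like range. NK-like cells held 197 to 297, monocyte-like cells 109 to 253, the cluster with Dcn and Col1a1 among its leading genes 76.5 to 170 in 3 libraries of at least 40 cells, dendritic-like cells 98.7 to 205 and B or plasma-like cells 90.2 to 126 in 3 libraries. The Dcn and Col1a1 cluster was also led by the urothelial genes Upk3a and Psca, so it is given no cell type name. From macrophage-like to B or plasma-like cells every neighbour in this order overlapped the next. Intercalated-like cells held 36.5 to 69.9 CPM, below every B or plasma-like library. Principal or connecting tubule-like cells held 42.7 to 115, proximal tubule-like cells 51.9 to 66.9, loop of Henle-like cells 39.3 to 74.9, distal convoluted tubule-like cells 30.8 to 39.6 and erythroid-like cells 15.3 to 48.1 CPM, again overlapping from each to the next.

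Among the 14 named or marker-led classes in this order, the members differed in where they were found. Classes are ranked here by their median over libraries. Iigp1 was highest in endothelial-like cells (49.4 to 244 CPM), whose lowest library lay above the highest library of any other class in that order, T-like cells coming next at 2.96 to 16 CPM. Irgm1 was also highest there (68.8 to 108 CPM), with no overlap with the next class. Ifi47 was highest in T-like cells (77.1 to 102 CPM), as was Gbp4 (68.1 to 112) and Igtp (35.8 to 62.0), each overlapping the next class. Gbp3 had close medians in macrophage-like cells (47.7 CPM, range 30.8 to 66.3) and endothelial-like cells (43.0 CPM, range 35.8 to 79.8). The lowest and the highest library were both higher in endothelial-like cells, so neither class is clearly first. Gbp2 and Gbp7 were highest in endothelial-like cells, at 37.6 to 86.1 and 66.7 to 167 CPM, and both overlapped T-like cells. In a class sum, more transcript per cell and more cells with the transcript cannot be told apart.

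**Figure D2:**
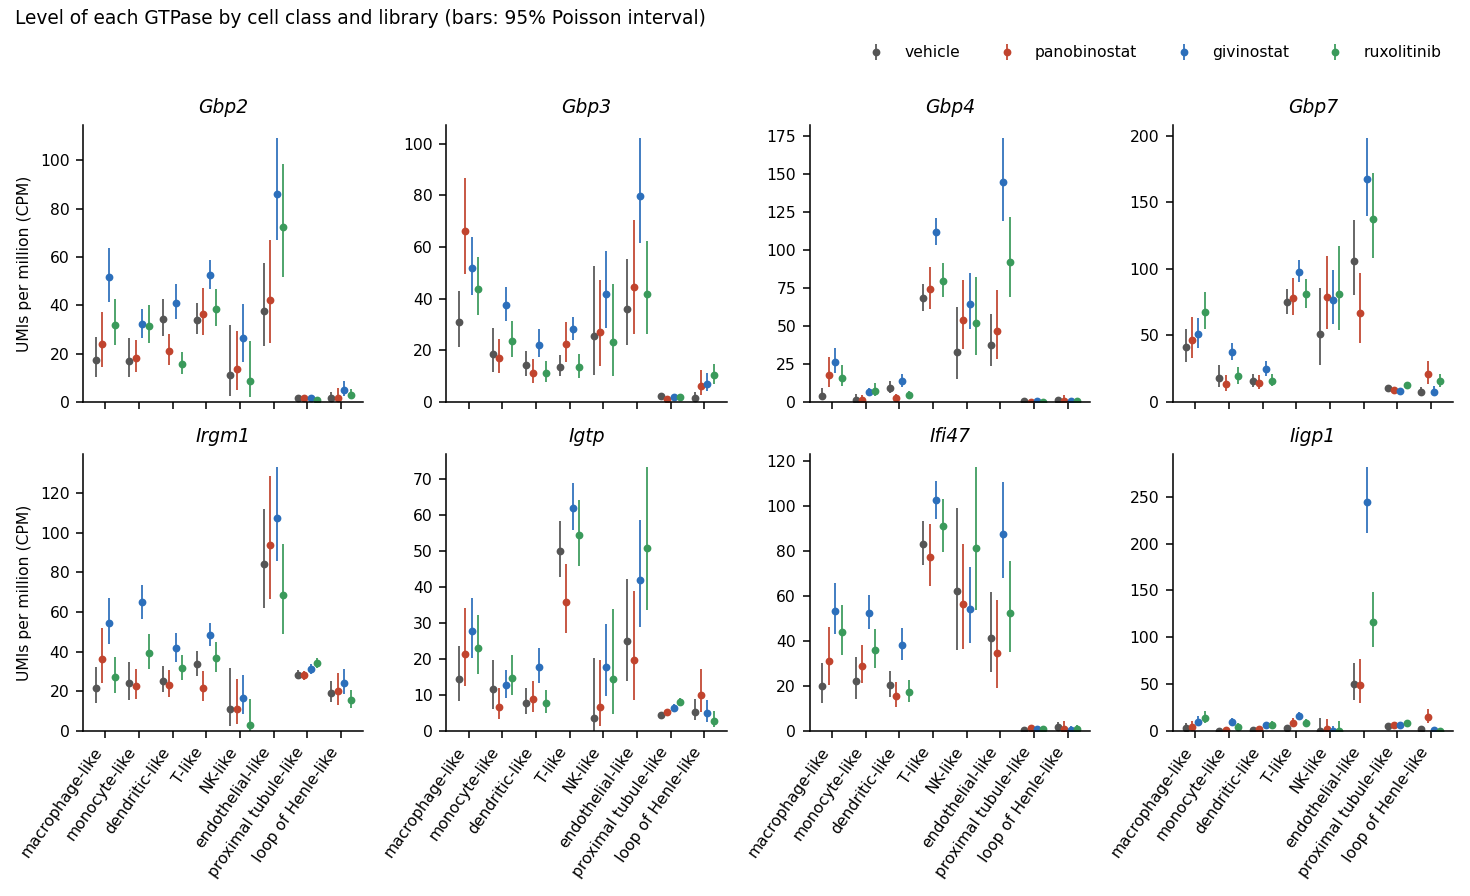
CPM of each member (vertical axis, linear and from 0, a scale of its own in each panel) in 8 cell classes and 4 libraries, with 95% Poisson intervals. Iigp1 stands out in endothelial-like cells at 244 CPM under givinostat, and Irgm1, at 28.0 to 34.1 CPM, is the highest member in proximal tubule-like cells.

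In macrophage-like cells (136, 124, 155 and 168 cells), which carry the C1q genes, all 3 drug libraries held more GTPase transcripts than the vehicle library. The sum of the 8 genes was 152, 246, 326 and 267 CPM. Against vehicle this was 1.63-fold under panobinostat [1.32 to 2.01], 2.15-fold under givinostat [1.81 to 2.58] and 1.76-fold under ruxolitinib [1.47 to 2.13]. Of the 7 members that passed the filter of 10 CPM as the mean of the 4 libraries (all but Iigp1), 4 were at least 1.5-fold higher under panobinostat, against 11.3% of the 8052 genes that passed. The count was 6 of 7 under givinostat, against 11.0% of genes, and 5 of 7 under ruxolitinib, against 12.0%. No member was 1.5-fold lower in any of the 3, against 11.5%, 9.99% and 7.29% of genes. The median log2 ratio of the members that passed (5 CPM added) was 0.54, 1.16 and 0.66, beside -0.0036, 0.03 and 0.08 over all genes that passed.

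Among the GBPs, which polymerise on pathogen membranes, Gbp2 in macrophage-like cells was at 17.2, 23.8, 51.6 and 32.0 CPM. The givinostat library was 3-fold vehicle [1.81 to 5.22], the ruxolitinib library 1.86-fold [1.07 to 3.35], and the panobinostat interval included 1. It was found in 14 of 136, 9 of 124, 31 of 155 and 12 of 168 cells, and without the 5 cells with the most Gbp2 in each library it was at 8.16, 5, 27.0 and 6.26 CPM, which puts ruxolitinib below vehicle. Gbp3 was at 30.8, 66.3, 51.6 and 43.8 CPM, highest under panobinostat at 2.15-fold [1.37 to 3.41], and its ruxolitinib interval included 1. Gbp4 had 4 UMIs in the vehicle library (3.63 CPM) and 17.5, 26.4 and 16 CPM in the others. All 3 of its intervals lay above 1, at 4.82-fold [1.52 to 20.1], 7.28-fold [2.65 to 27.9] and 4.41-fold [1.51 to 17.5]. Gbp7 varied least, at 40.8, 46.3, 51.0 and 67.5 CPM, and only its ruxolitinib interval left 1 (1.65-fold [1.15 to 2.41]).

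The regulatory IRGs were highest under givinostat. Irgm1, which guards the membranes of the cell itself and takes part in autophagy, was at 21.8, 36.3, 54.6 and 27.1 CPM in macrophage-like cells. Its givinostat library stood at 2.51-fold vehicle [1.59 to 4.12], and the intervals of panobinostat and ruxolitinib included 1. Igtp was at 14.5, 21.3, 27.6 and 23.0 CPM, with 1.90-fold under givinostat [1.06 to 3.60] as the interval that left 1.

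Of the effector IRGs, Ifi47 in macrophage-like cells was at 20, 31.3, 53.4 and 43.8 CPM, 2.68-fold vehicle under givinostat [1.66 to 4.49] and 2.20-fold under ruxolitinib [1.33 to 3.75]. Iigp1, the best studied vacuole-loading IRG of the mouse, was scarce, with 3, 3, 16 and 20 UMIs. Its ratio was 3.53 under givinostat [1.01 to 18.9] and 5.11 under ruxolitinib [1.52 to 26.9], and 75.0% of the ruxolitinib UMIs came from 5 cells.

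A few cells carried much of these sums. The 5 macrophage-like cells with the most Gbp2 held 52.6%, 78.9%, 47.7% and 80.4% of its UMIs. Without the 5 cells with the most member UMIs in each library the summed ratios were 1.36, 1.89 and 1.51. After thinning every cell to 2500 UMIs, 31.6% of vehicle macrophage-like cells had a UMI of any member [23.9% to 40.1%], beside 44.4% [35.4% to 53.5%], 40% [32.2% to 48.2%] and 40.5% [33.0% to 48.3%] under the drugs, so the shares of cells overlapped. Before thinning they were 63.2%, 62.1%, 77.4% and 72.6%, at a median of 5746, 4837.5, 8488 and 6645.5 UMIs per cell. The thinned share in proximal tubule-like cells was 9.73%, 9.34%, 8.65% and 11.1%, at a median of 9758.5, 7663.5, 12857 and 10372 UMIs before thinning.

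RNA of other cells was present in the macrophage-like sums. The 9 T cell markers summed to 116, 45, 179 and 102 CPM and the 8 endothelial markers to 19.1, 28.8, 54.0 and 29.9 CPM. Of the endothelial markers, Cdh5, Emcn, Plvap and Egfl7 were at 0 in the vehicle library, 2 were at 0 in the panobinostat library and none in the others. Of the T cell markers, Trdc was at 0 in the panobinostat library. The 10 proximal tubule markers summed to 1911, 3667, 2305 and 2331 CPM, and the 9 macrophage markers to 27103, 18686, 25745 and 23101 CPM. Their part in the GTPase values was not tested.

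**Figure D3:**
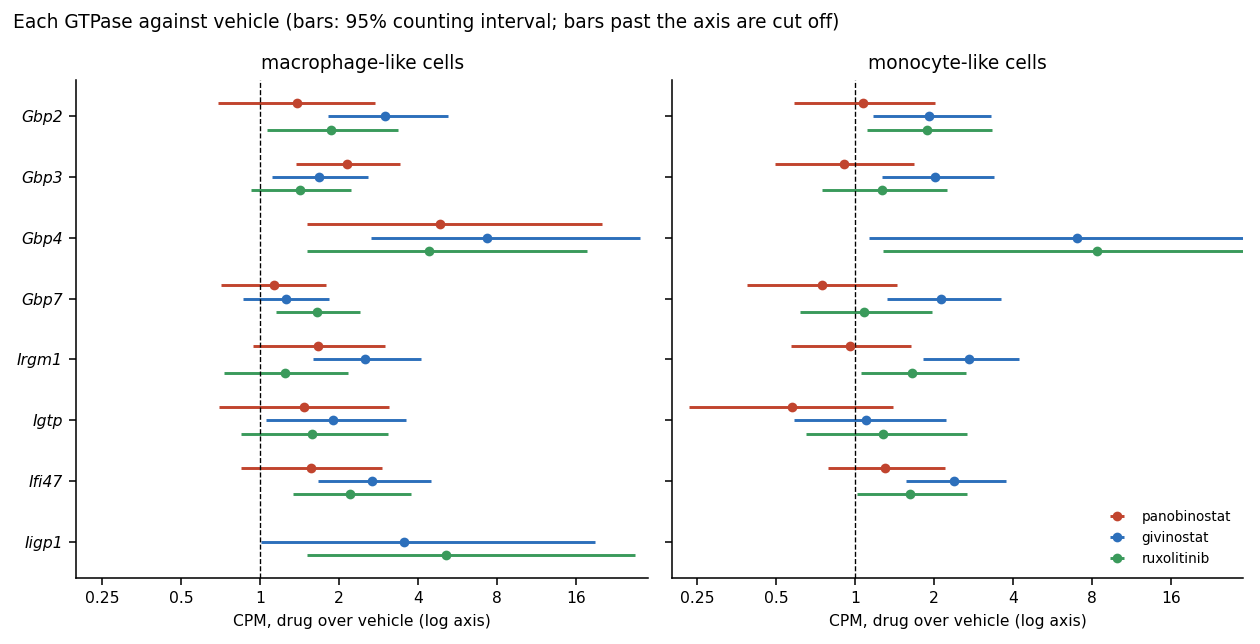
Ratio of CPM to the vehicle library (horizontal log axis) for each member in macrophage-like and monocyte-like cells, with 95% counting intervals; ratios with 3 UMIs or fewer in both libraries or 0 in vehicle are not drawn. All points of the left panel lie above 1, while the panobinostat points of the right panel lie on both sides of it.

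Monocyte-like cells (150, 260, 302 and 234 cells) held more GTPase transcripts than vehicle in the givinostat and ruxolitinib libraries. The 8 genes summed to 112, 109, 253 and 176 CPM. The panobinostat library was at 0.974-fold vehicle [0.771 to 1.23], while givinostat stood at 2.27-fold [1.88 to 2.76] and ruxolitinib at 1.58-fold [1.28 to 1.95]. At a finer clustering the ruxolitinib ratio was 1.22 [0.971 to 1.55]. Of the 6 members that passed the filter (all but Gbp4 and Iigp1), none was 1.5-fold higher under panobinostat, against 6.11% of 7616 genes, and Igtp was 1.5-fold lower, against 6.62%. Under givinostat 5 of 6 were higher, against 7.77%, and under ruxolitinib 3 of 6 (Gbp2, Irgm1 and Ifi47), against 6.80%. None was lower in either, against 4.83% and 7.48%.

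Irgm1 was at 23.9, 22.8, 64.8 and 39.3 CPM in monocyte-like cells, 2.71-fold vehicle under givinostat [1.82 to 4.2] and 1.64-fold under ruxolitinib [1.05 to 2.65]. Ifi47 was at 22.1, 28.8, 52.4 and 35.9 CPM, with 2.37-fold [1.55 to 3.75] and 1.62-fold [1.02 to 2.66] in the same libraries. Gbp2 was at 16.8, 18.0, 32.1 and 31.4 CPM, at 1.91-fold under givinostat [1.17 to 3.29] and 1.87-fold under ruxolitinib [1.11 to 3.30]. Of its 64 ruxolitinib UMIs, 27 came from 1 cell, and at the finer clustering the ruxolitinib ratio turned to 0.937 [0.475 to 1.91].

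Gbp3 was at 18.6, 16.8, 37.5 and 23.6 CPM and Gbp7 at 17.7, 13.2, 37.5 and 19.2 CPM, and under givinostat they stood at 2.02-fold [1.27 to 3.36] and 2.12-fold [1.32 to 3.58]. Their ruxolitinib intervals included 1. Igtp was at 11.5, 6.60, 12.7 and 14.7 CPM, and no interval left 1. Gbp4 had 1, 2, 22 and 15 UMIs and Iigp1 0, 2, 35 and 9 UMIs. Of the 35 Iigp1 UMIs, 24 came from 1 cell.

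The monocyte-like class joins clusters with unlike levels. In the cluster led by Chil3 and F13a1, markers of classical monocytes, the sum was 178, 141, 351 and 245 CPM over 68, 143, 167 and 133 cells. In the cluster led by Adgre4 and Treml4, markers of non-classical monocytes, it was 45.8, 62.8, 94.9 and 68.1 CPM over 82, 117, 135 and 101 cells. Givinostat stood above vehicle in both, at 1.97-fold [1.60 to 2.46] and 2.07-fold [1.35 to 3.29]. The panobinostat ratio was 0.791 [0.607 to 1.03] in the first and 1.37 [0.822 to 2.32] in the second.

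Set against givinostat, which lies on the same side of the library split, ruxolitinib had lower GTPase sums in both classes. The ratio was 0.819 in macrophage-like cells [0.717 to 0.935] and 0.695 in monocyte-like cells [0.613 to 0.786]. In macrophage-like cells Gbp2, Gbp4 and Irgm1 were 1.5-fold lower, 3 of 7 members against 5.65% of genes, and in monocyte-like cells Gbp3, Gbp7 and Irgm1, 3 of 6 against 5.63%. None was 1.5-fold higher, against 8.73% and 2.46% of genes.

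Dendritic-like cells (218, 200, 187 and 220 cells) held 126, 98.7, 205 and 110 CPM of the 8 genes. Givinostat stood above vehicle at 1.62-fold [1.42 to 1.87], panobinostat below it at 0.782-fold [0.654 to 0.934], and the ruxolitinib interval included 1 (0.873 [0.747 to 1.02]). Under givinostat 5 of the 6 members that passed were 1.5-fold higher, against 7.24% of 7840 genes, and Gbp2 was not; none was lower, against 3.53%. Gbp2, at 34.3, 21, 41.1 and 15.7 CPM, was the 1 member 1.5-fold lower under panobinostat (0.611 [0.416 to 0.887]) and under ruxolitinib (0.459 [0.316 to 0.660]), against 4.39% and 3.49% of genes. None was 1.5-fold higher in those libraries, against 12.5% and 9.96%. The 9 T cell markers summed to 173, 89.0, 366 and 132 CPM in dendritic-like cells, which puts the libraries in the same order as the GTPase sum, with Trdc at 0 under panobinostat and no other at 0. The 10 proximal tubule markers summed to 1217, 3763, 1116 and 2229 CPM, none at 0. The part of either in the GTPase values was not tested. The 5 cells with the most Gbp2 held 42.4%, 77.8%, 61.7% and 77.6% of its UMIs. All 21 Iigp1 UMIs of the ruxolitinib library came from 1 cell. Set against givinostat, ruxolitinib had 5 of the 6 members 1.5-fold lower (all but Irgm1), against 4.82% of genes, and none higher, against 7.76%.

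T-like cells (656, 357, 684 and 450 cells) held 1219, 573, 2914 and 1058 UMIs of the 8 genes. The sum was 361, 354, 519 and 402 CPM, or 0.980-fold vehicle under panobinostat [0.886 to 1.08], 1.44-fold under givinostat [1.35 to 1.54] and 1.12-fold under ruxolitinib [1.03 to 1.21]. Gbp4 was at 68.1, 74.0, 112 and 79.5 CPM and Gbp2 at 34.0, 36.4, 52.6 and 38.4 CPM. Under givinostat these and Gbp3 were 1.5-fold higher, 3 of the 7 members that passed against 4.33% of 7547 genes, and under ruxolitinib none was, against 3.99%. None was 1.5-fold lower in either, against 1.27% and 1.93%. Set against givinostat, ruxolitinib had Gbp3 1.5-fold lower, against 2.73%, and none higher, against 1.84%. Under panobinostat Gbp3 was 1.63-fold higher [1.02 to 2.58], against 4.56% of genes, and Irgm1 0.640-fold [0.425 to 0.942], against 5.06% on the lower side. Iigp1 was at 2.96, 8.02, 16 and 7.99 CPM. In the cluster led by Ctla4 and Cd4 the sum was 413, 418, 643 and 434 CPM, and in the cluster led by Xcl1, Ccl5 and Cd8b1 it was 362, 346, 467 and 463 CPM. Ruxolitinib thus stood at 1.05-fold vehicle in the first [0.919 to 1.20] and 1.28-fold in the second [1.14 to 1.44].

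In NK-like cells (55, 107, 96 and 65 cells) the sum was 197, 250, 297 and 264 CPM, and the givinostat interval left 1 (1.51-fold [1.12 to 2.07]). Past 1.5-fold higher were 3, 5 and 3 of the 7 members that passed, against 18.3%, 19.2% and 23.5% of 7246 genes. Irgm1 was 1.5-fold lower under ruxolitinib, with 3 UMIs in vehicle and 1 under the drug, against 16.4% of genes, and no member was lower under panobinostat or givinostat, against 17.5% and 13.5%. No single member of theirs had an interval that left 1 against vehicle.

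Endothelial-like cells fell below the 50-cell minimum in vehicle and panobinostat (49 and 45 cells, with 68 and 52 in the others), and their ratios use a minimum of 40 that was chosen after the cell numbers were seen. This lower minimum was applied to endothelial-like cells only. Other classes kept the 50-cell minimum, among them intercalated-like (47 cells under panobinostat) and principal or connecting tubule-like cells (48 under givinostat). In endothelial-like cells the 8 genes summed to 418, 398, 959 and 631 CPM, which is 0.952-fold vehicle under panobinostat [0.774 to 1.17], 2.30-fold under givinostat [1.98 to 2.67] and 1.51-fold under ruxolitinib [1.28 to 1.79]. Without the 5 cells with the most member UMIs in each library, vehicle was at 278 CPM. The ratios were then 1.04, 2.63 and 1.21. Iigp1 was at 50.2, 49.4, 244 and 116 CPM, which is 4.87-fold under givinostat [3.27 to 7.52] and 2.31-fold under ruxolitinib [1.46 to 3.74]. It was found in 17 of 49, 13 of 45, 45 of 68 and 19 of 52 cells, and 28 of the 64 UMIs of the ruxolitinib library came from 1 cell.

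Gbp4 followed at 37.6, 46.9, 144 and 92.3 CPM, 3.84-fold under givinostat [2.39 to 6.44] and 2.45-fold under ruxolitinib [1.45 to 4.29]. Irgm1 was at 84.2, 93.8, 108 and 68.8 CPM, and all 3 of its intervals included 1. The 8 endothelial markers summed to 4125, 4498, 8289 and 6004 CPM in this class, with none at 0. Like the GTPase sum, they were highest under givinostat and next under ruxolitinib. Under panobinostat they stood above vehicle, where the GTPase sum stood below it. The 9 macrophage markers summed to 3062, 3429, 8388 and 1949 CPM, with none at 0, and the 9 T cell markers to 168, 227, 96.2 and 291 CPM, with Cd8a and Trdc at 0 under givinostat and Cd8a under ruxolitinib. The part of any of them in the GTPase values was not tested.

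**Figure D4:**
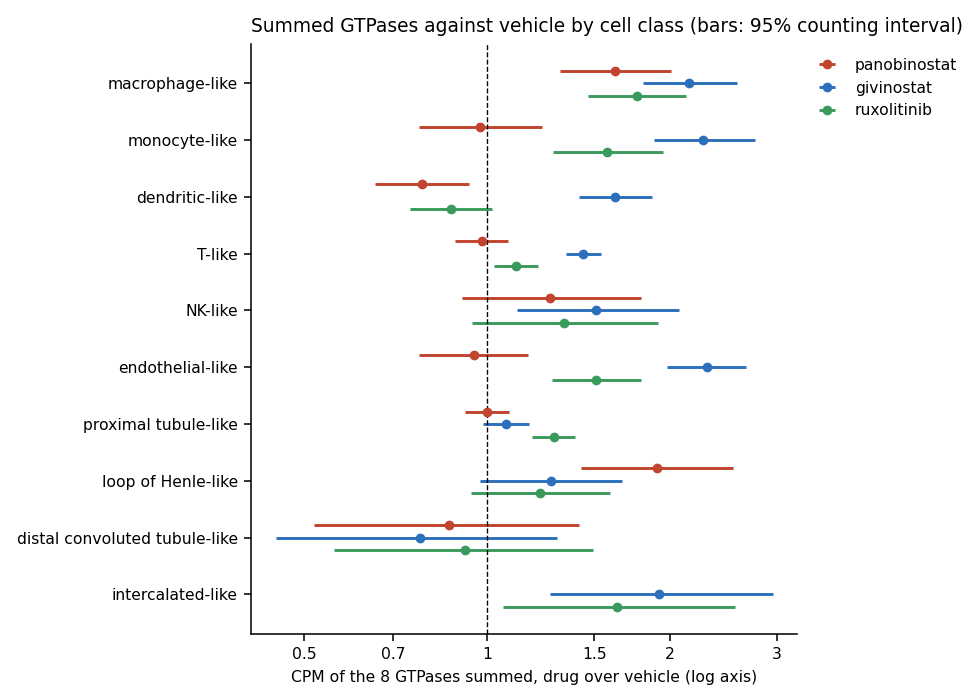
Ratio to vehicle of the 8 members summed (horizontal log axis) in 10 cell classes and 3 drug libraries, with 95% counting intervals; endothelial-like cells use the 40-cell minimum, and intercalated-like cells of the panobinostat library fell below 50. Givinostat lies above 1 in all 6 classes from macrophage-like to endothelial-like, while panobinostat lies above 1 in macrophage-like and below it in dendritic-like cells. Givinostat also lies above 1 in intercalated-like cells, a tubule class, at 69.9 CPM beside 36.5 in vehicle.

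Proximal tubule-like cells (1716, 2430, 1145 and 1662 cells) held 51.9, 51.9, 55.8 and 66.9 CPM of the 8 genes. Panobinostat was at 0.999-fold vehicle [0.918 to 1.09], givinostat at 1.07-fold [0.983 to 1.17] and ruxolitinib at 1.29-fold [1.19 to 1.40]. At a finer clustering, in which some cells left the class, the ruxolitinib ratio was 0.996 [0.909 to 1.09]. Irgm1 made up most of this, at 28.4, 28.0, 31.0 and 34.1 CPM, with 1.20-fold under ruxolitinib [1.08 to 1.35]. Gbp7 was at 10.1, 9.15, 8.05 and 12.8 CPM, and Igtp at 4.29, 5.14, 6.30 and 7.93 CPM (1.85-fold under ruxolitinib [1.42 to 2.43]). Only Irgm1 and Gbp7 passed the filter, and neither was 1.5-fold higher than vehicle, against 0.531%, 1.14% and 1.97% of 7720 genes, or lower, against 1.35%, 0.984% and 0.816%. Set against givinostat, Gbp7 was 1.59-fold higher under ruxolitinib [1.29 to 1.96], against 1.08% of genes, and neither was lower, against 0.712%.

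RNA freed from leukocytes can reach tubule droplets, so the level in proximal tubule-like cells was set beside the level in all leukocyte-like cells. For 6 leukocyte genes summed, among them Ptprc and Cd74, it was 1.51%, 1.03%, 1.24% and 1.13% of the leukocyte level. Cd74 carried most of that sum and lay at 1.56% to 2.39% by itself, while each of the other 5 lay between 0.268% and 0.594%. For Gbp4 the share was 1.14%, 0.572%, 0.762% and 0.710%, and for Ifi47 0.774%, 2.90%, 1.54% and 1.93%. Gbp4 was thus below the summed share in every library and Ifi47 above it in all but vehicle, and how much of either is freed RNA was not tested. For Irgm1 it was 106%, 117%, 64.0% and 108%, and for Gbp7 23.7%, 25.1%, 13.5% and 30.5%, well above the share of any of the 6 leukocyte genes. Igtp lay at 17.2% to 33.7%, Gbp3 at 4.11% to 12.6% and Gbp2 at 3.08% to 5.98%.

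**Figure D5:**
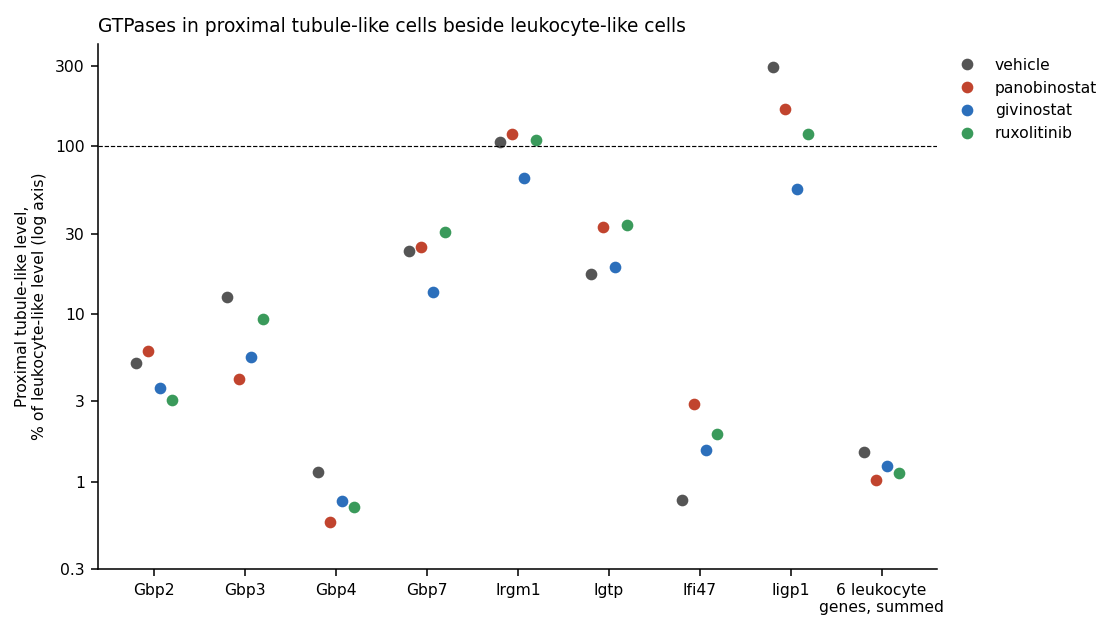
Level of each member in proximal tubule-like cells as a percent of its level in all leukocyte-like cells (vertical log axis), by library, beside the same for 6 leukocyte genes summed. Gbp4 and Ifi47 are the members closest to the leukocyte genes, between 0.572% and 2.90%, and Irgm1 and Iigp1 lie near or above the dashed line of equal level in vehicle, panobinostat and ruxolitinib.

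Iigp1 in the proximal tubule was a matter of few cells. Its level was 5.04, 6.08, 5.74 and 8.32 CPM, above the level in leukocyte-like cells in 3 of 4 libraries (296%, 165%, 55.3% and 118%). Of the proximal tubule-like cells, 28 of 1716, 34 of 2430, 19 of 1145 and 29 of 1662 held any Iigp1 UMI, and 5 cells held 61.4%, 55.6%, 66.7% and 64.3% of the UMIs. Single cells held up to 32, 33, 26 and 42. Irgm1 was spread out: 404, 463, 312 and 427 cells held a UMI and the top 5 cells held 6.75% to 11.3%. The ruxolitinib ratio of Iigp1 was 1.65 [1.29 to 2.14], and at the finer clustering it turned to 0.457 [0.317 to 0.652].

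In the proximal tubule-like cluster led by Pdk4, Cxcl1 and Adamts1, the sum was 49.9, 77.8, 54.8 and 108 CPM over 214, 93, 102 and 126 cells. This was 1.56-fold vehicle under panobinostat [1.21 to 2.00] and 2.16-fold under ruxolitinib [1.79 to 2.62], with givinostat at 1.10-fold [0.874 to 1.38]. The other proximal tubule-like clusters are not given here. How far single cells carried the sum in this cluster was not tested. In loop of Henle-like cells the sum was 39.3, 74.9, 50 and 48.1 CPM, 1.91-fold under panobinostat [1.43 to 2.54]. Of the 97 panobinostat UMIs, 19 were Iigp1 from 1 cell, and without the 5 cells with the most member UMIs in each library the ratio was 1.34. Gbp7 passed the filter there and was at 7.18, 20.9, 7.73 and 15.6 CPM, 2.90-fold under panobinostat [1.56 to 5.52], against 6.01% of 8565 genes 1.5-fold higher. It was 2.17-fold under ruxolitinib [1.24 to 3.92], against 6.55%, and Irgm1, the other member that passed, was not past 1.5-fold in any drug library. No member was 1.5-fold higher under givinostat, against 6.28%, and none was lower in the 3 libraries, against 3.99%, 4.14% and 3.85%. In intercalated-like cells the sum was 36.5, 69.9 and 59.6 CPM in vehicle, givinostat and ruxolitinib. Without the 5 cells with the most member UMIs in each library, givinostat stood there at 1.52-fold vehicle and ruxolitinib at 1.44-fold.

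The upstream pathway was present in every library. In T-like cells Ifng, the ligand, was at 225, 323, 211 and 196 CPM, and in NK-like cells at 554, 722, 440 and 655 CPM. Ifng was thus 1.43-fold vehicle in T-like cells under panobinostat [1.28 to 1.60], the library whose T-like GTPase sum was 0.980-fold vehicle. The mix of T-like clusters also differed between these libraries. The cluster led by Xcl1, with Ifng among its leading genes, held 274 of 656 T-like cells in vehicle and 227 of 357 under panobinostat. The part of this mix in either value was not tested. In macrophage-like cells the receptor chain Ifngr1 was at 274, 278, 283 and 305 CPM and Jak1 at 156, 131, 181 and 157 CPM, and no interval against vehicle left 1.

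Among the signalling genes, Irf1, a transcription factor induced by the pathway, was at 49, 51.3, 82.9 and 84.2 CPM in macrophage-like cells, 1.69-fold vehicle under givinostat [1.23 to 2.36] and 1.72-fold under ruxolitinib [1.24 to 2.41]. Irf9, which takes part in binding to ISRE elements, was at 34.5, 52.5, 69.7 and 66.8 CPM, 2.02-fold [1.39 to 3] and 1.94-fold [1.32 to 2.90] in the same libraries. The panobinostat intervals of both included 1. Jak2 was at 19.1, 17.5, 31.2 and 24.3 CPM, and Socs1, a feedback inhibitor of the JAKs, at 17.2, 10.0, 16.2 and 11.1 CPM, and no interval of either left 1.

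Other interferon-inducible GTPases were mostly below the filter: 3 of 12 in the matrix passed in macrophage-like cells. Gbp9 was at 7.26, 13.8, 35.4 and 15.3 CPM, Gbp8 at 13.6, 15.0, 25.2 and 25.7 CPM, and the very large GTPase gene 9930111J21Rik2 at 85.3, 90.0, 103 and 105 CPM. Gbp8 and Gbp9 were 1.5-fold higher under givinostat and ruxolitinib, against 11.0% and 12.0% of genes, and Gbp9 under panobinostat, against 11.3%. The annotated spans of both overlap that of Gbp4, so their counts may not be independent of that member. Of 15 other interferon-gamma targets that passed, 4 were higher under givinostat (Cxcl9, Cxcl10, Nlrc5 and Tap1), 2 under panobinostat (Cxcl9 and Cxcl10) and 1 under ruxolitinib (Cxcl9), against 11.0%, 11.3% and 12.0% of all genes that passed. The panobinostat and ruxolitinib counts are thus near or below the share over all genes. The targets with the highest levels, Ly6a and the proteasome genes Psme1 and Psmb8, stayed between 0.723-fold and 1.32-fold.

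Cxcl9, a chemokine that draws T cells, had 0, 15, 90 and 114 UMIs in macrophage-like cells. With 3 counts put in place of 0 in the vehicle library, the drug libraries stood at 6.89-fold, 19.9-fold and 29.1-fold. These values leave out counting error in the drug libraries and are not lower limits. Cd274 was 1.5-fold lower under panobinostat and ruxolitinib, and Nlrc5 under panobinostat, with intervals that included 1, against 11.5% (panobinostat) and 7.29% (ruxolitinib) of genes. In monocyte-like cells Cxcl9 was 1.5-fold lower under panobinostat and givinostat, against 6.62% and 4.83% of genes. It was 1.5-fold higher there under ruxolitinib, against 6.80%.

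The type I interferon genes share the ISRE route. All 15 that passed in macrophage-like cells were 1.5-fold higher under givinostat, against 11.0% of genes. Under ruxolitinib 3 were higher and 1 lower, against 12.0% and 7.29%, and under panobinostat 3 were higher and 3 lower, against 11.3% and 11.5%, so these counts lie close to the shares over all genes. Irf7, the amplifier of the type I response, was at 84.4, 77.5, 152 and 59.1 CPM in macrophage-like cells. It was 1.80-fold vehicle under givinostat [1.41 to 2.31] and 0.701-fold under ruxolitinib [0.516 to 0.951], where the GTPase sum was 1.76-fold. Rtp4 was at 59.9, 76.3, 106 and 74.4 CPM and Oasl2 at 62.6, 58.8, 117 and 75.8 CPM. In monocyte-like cells 12 of 15 were higher under givinostat, against 7.77% of genes, while Irf7, at 144, 90.1, 165 and 85.5 CPM, was 0.624-fold under panobinostat [0.496 to 0.784] and 0.592-fold under ruxolitinib [0.476 to 0.738]. In dendritic-like cells 7 of 12 were 1.5-fold lower under ruxolitinib, against 3.49% of genes, and none higher, against 9.96%, Isg15 being at 64.1, 50.8, 98.2 and 20.2 CPM. The difference between the lists was not tested.

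The genes that load GBPs and IRGs onto membranes, which belong to the autophagy conjugation system, were mostly within 1.5-fold of vehicle in macrophage-like cells. Gabarap was at 526, 508, 490 and 482 CPM there and Map1lc3b at 220, 229, 216 and 213 CPM. Of the 10 genes, all of which passed, Atg3 was 1.5-fold higher and Gabarapl1 1.5-fold lower under ruxolitinib (0.511-fold [0.399 to 0.653]), against 12.0% and 7.29% of genes, and none was past 1.5-fold under panobinostat or givinostat. In NK-like cells, whose libraries hold few cells, Atg3, Atg7 and Atg12 were 1.5-fold lower under panobinostat, 3 of 10 against 17.5% of genes. Under ruxolitinib Atg12, Gabarap and Gabarapl1 were lower there, against 16.4%, and Atg16l1 was higher, against 23.5%.

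Over 47 points of class and library from 14 classes, genes among the most like the mean log2 level of the 8 members were Arhgap31 (Pearson r = 0.925), Lgals9 (0.907), Gbp9 (0.906), Xaf1 (0.891), Parp14 (0.886), H2-T22 (0.866) and Ifi203 (0.866). Points of a class share cell type and points of a library share depth, so these values are descriptions. After the mean of each class was taken off, which leaves differences between libraries (46 points), genes among the most alike were Tra2b (0.706), Rtp4 (0.7004), Nfatc1 (0.690), Ifi204 (0.677), Ifi209 (0.675), Pnrc2 (0.669) and Oasl2 (0.660). Among the members, Irgm1 (0.487) and Iigp1 (0.574) were least like the mean of the other 7 over the 47 points, and the remaining 6 had r between 0.831 and 0.902.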

How the data were processed

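Kidney cells of 4 groups were measured as 1 droplet 3′ library each. The values are the authors' deposited UMI counts per gene and cell in 1 matrix of all libraries, made with Cell Ranger 3.0.1 on mm10 per the submitters' processing notes. Further filters of the authors are not given in the sources used here. Libraries were told apart by barcode suffix, and the suffix without a drug name was taken as vehicle. Cells with at least 200 genes, 500 UMIs and at most 50% mitochondrial UMIs were kept, clustered (scanpy 1.11.5, Leiden resolution 1) and named from marker lists. UMIs were summed by class and library (at least 50 cells) and scaled to counts per 1e6 UMIs (CPM). Intervals are exact 95% Poisson (levels), conditional binomial (ratios) and Clopper-Pearson (shares), and cover counting error only. Ratio intervals were tried on simulated class sums drawn with counting error only. Such sums leave out the clumping of UMIs in single cells, so they cannot show how the intervals hold there. Alternatives covered clustering, filters, thinning and totals (edgeR 4.0.16 TMM and DESeq2 1.42.0 size factors). The rule named all members, the 3 genes with the highest level of each other list and the 8 most alike genes. Other genes were named after their values were seen. Members and lists were chosen with earlier results of these data known. One gene of these lists is not reported here.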

Additional observations from a re-analysis of the deposited data

Results flagged for a closer look

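Under panobinostat the 8 genes summed to 0.782-fold vehicle in dendritic-like cells [0.654 to 0.934], while macrophage-like cells stood at 1.63-fold [1.32 to 2.01] and loop of Henle-like cells at 1.91-fold [1.43 to 2.54]. These pairs stand out because the single panobinostat library lies on opposite sides of vehicle in the classes named. The difference was not tested.

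The cluster led by Serpina1f and Cyp7b1, which has no cell type name and enters no comparison of the report, held 38.5 CPM of the 8 genes in the vehicle library and 71.2 CPM in the panobinostat library, or 1.85-fold [1.12 to 3.11]. It stands out as a signal above vehicle in cells outside the compared classes.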

How the results depend on the processing

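With 1 library per group no replicate could be left out. No paired analysis was possible because each group has 1 library. Of 190 member ratios, 67 had an interval that left 1, and 4 of their 653 alternative values changed side of 1. At Leiden resolution 1.5 these were Gbp2 in monocyte-like cells (0.937) and Iigp1 in proximal tubule-like cells (0.457) under ruxolitinib. With cells thinned to 2500 UMIs they were Gbp4 in dendritic-like cells (1.19) and Gbp7 in principal or connecting tubule-like cells (0.469) under ruxolitinib. Leaving out the cells with the most UMIs is not among the 653 values, since it was run for the sums only. Gbp2 in macrophage-like cells under ruxolitinib, which fell below vehicle without such cells, is thus not counted. Settings that changed only the totals moved no ratio out of its interval, so their values say little about single members. The summed ratio under ruxolitinib was 0.996 in proximal tubule-like and 1.22 in monocyte-like cells at resolution 1.5. The summed macrophage-like ratio under givinostat was 2.65 at resolution 1.5 and 1.74 with every cell weighted equally. Panobinostat stood at 1.37 in monocyte-like cells of cluster 14, led by Adgre4. Ruxolitinib set against givinostat gave 0.819 for macrophage-like cells and 0.695 for monocyte-like cells, where against vehicle it lay above 1. At 2-fold the macrophage-like count of members higher was 2 under panobinostat and 2 under ruxolitinib, and the monocyte-like count was 0 higher under ruxolitinib and 0 lower under panobinostat. Under givinostat 4 of 7 macrophage-like and 4 of 6 monocyte-like members were 2-fold higher. With a filter at 50 CPM, 1 member (Gbp7) passed in macrophage-like cells. The counts 1.5-fold higher there were 0 (panobinostat), 0 (givinostat) and 1 (ruxolitinib). No member passed at 50 CPM in monocyte-like cells. The counts of 0 there (higher under givinostat and ruxolitinib, lower under panobinostat) thus rest on no tested member. With no filter 1 of the 8 members was higher under panobinostat and 5 under ruxolitinib in monocyte-like cells. The shares over all genes at these other settings are not given here, so these counts have no background beside them. Other causes were not tested. The 40-cell minimum, both totals without abundant genes and leaving out the 5 cells with the most member UMIs were chosen after seeing the data.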

Other observations

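The 8 genes were also counted in clusters that carry no cell type name. In the cluster of 507 cells led by Lef1 and Ccr7, genes of naive and recirculating lymphocytes, they summed to 217, 185, 222 and 212 CPM in vehicle, panobinostat, givinostat and ruxolitinib. In the cluster led by Siglech, a receptor of plasmacytoid dendritic cells, Ifi47 was at 103 CPM in vehicle and 100 CPM in ruxolitinib.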
